A study of Arabidopsis thaliana with 12 samples.

Results

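A set of 107 Arabidopsis thaliana genes was much higher in leaves once a fragment of the protein CPR5 had been induced, and was nearly unmoved by the inducer alone in wild-type leaves. The genes are known in the platform's annotation only by their locus number. They were taken from the 11933 probe sets that the annotation pairs with a single gene whose symbol is a bare locus, among 22746 probe sets tested. A gene was taken when the mean of the CPR5-C dexamethasone arrays exceeded that of the CPR5-C water arrays by at least 2 on the log2 scale, and when the means of the wild-type dexamethasone and water arrays differed by less than 0.4 in either direction. These measured values chose the genes, so their size is a description and was not tested.

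The 12 ATH1 microarrays, with RNA of a single sample on each, fall into 4 groups of 3 biological replicates. The plants were Col-0 carrying Dex:YFP-CPR5-C and sprayed with 50 µM dexamethasone (CPR5-C dexamethasone), the same genotype sprayed with water (CPR5-C water), Col-0 wild type (WT) sprayed with 50 µM dexamethasone, and WT sprayed with water. All plants were 4 weeks old and all groups are mature leaves collected 24 hours after the spray. Dex:YFP-CPR5-C is a construct switched on by dexamethasone, a synthetic glucocorticoid, that makes YFP, a yellow fluorescent protein, joined to a C-terminal fragment of CPR5; the study's design takes the fragment for a dominant negative that disturbs the native protein, which these plants still carry. How many independent transgenic lines were used, and whether leaves of several plants were pooled, was not given in the sources used.

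CPR5 sits in the nuclear pore complex, and plants that lack it are known for spontaneous lesions, raised immunity and early leaf senescence. A dexamethasone-inducible construct separates the effect of the induced construct from that of the spray: WT leaves receive the same steroid but have no construct. No line with an inducible YFP alone was among the samples. The effect of the CPR5 fragment therefore cannot be told apart from that of the rest of the construct. In whole leaves, more cells of a type and more RNA per cell cannot be told apart. CPR5 itself was not analysed here, so the induction of the fragment was not checked on the arrays.

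The values are log2 signals, centred by the authors so that the median of each probe set over the 12 arrays is 0. They show differences between arrays and no absolute level, so the labelled tissue could not be checked against the level of leaf markers. Over all probe sets, the centred values had an SD between 0.68 and 0.69 on each induced array and between 0.13 and 0.23 on each of the other 9, and the array medians lay between -0.01 and 0.01. Where the induced arrays are all highest or all lowest, the median of a probe set falls among the other 9. Values near 0 on those 9 are therefore partly set by the centring. The number of arrays limits the precision.

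The difference between CPR5-C dexamethasone and CPR5-C water leaves ran from 2.01 to 6.96 over the 107 genes, which is 4.04-fold to 125-fold, with a median of 2.51 (5.70-fold). It was at least 5 for 8 genes, between 4 and 5 for 9, between 3 and 4 for 22, between 2.5 and 3 for 15 and between 2 and 2.5 for 53. Over all 22746 probe sets the median difference was -0.02, and 334 of them (1.47%) had a difference of at least 2, the threshold that chose the genes. In WT leaves the dexamethasone minus water difference of the 107 genes ran from -0.39 to 0.39, within the bound of the rule, with a median of 0.11 against 0.00 over all probe sets.

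**Figure D1:**
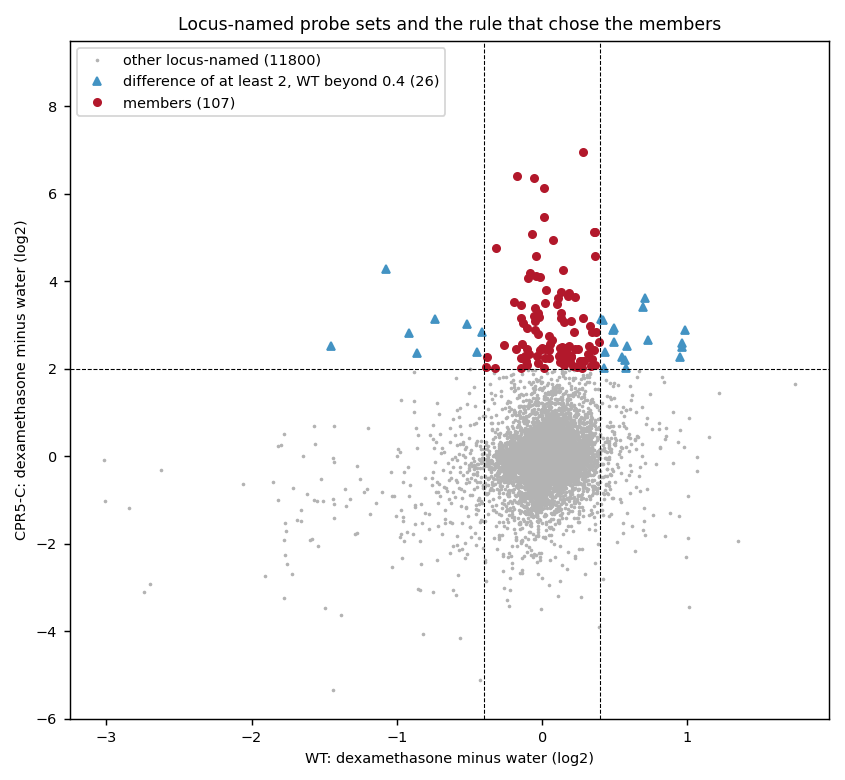
Each point is 1 probe set with a bare locus as its symbol; the horizontal axis is dexamethasone minus water in WT and the vertical axis the same difference in CPR5-C plants, both log2. The dashed lines mark the thresholds of 2 and 0.4: red circles are the 107 genes, blue triangles the 26 with the same difference in CPR5-C plants but a larger difference in WT, and grey points the rest.

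The gene with the largest difference was AT4G23680, which belongs to the major latex protein-like family. (Families are named here from general knowledge of Arabidopsis genes, since the annotation table pairs these probe sets with a locus and no function.) AT4G23680 had 7.03, 6.83 and 6.81 on the CPR5-C dexamethasone arrays and -0.05, -0.26 and 0.10 on the CPR5-C water arrays, against 0.05, -0.06 and 0.31 in WT dexamethasone and -0.17, -0.13 and -0.25 in WT water leaves. Its 3 induced arrays stood far above the other 9. Among those, the CPR5-C water arrays overlapped with both WT groups and the WT dexamethasone arrays lay just above the WT water arrays, and the difference between CPR5-C dexamethasone and water was 6.96 (125-fold). Members of this family share a fold with a hydrophobic pocket.

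AT2G36220 had 6.27, 6.01 and 6.22 in CPR5-C dexamethasone and -0.24, -0.19 and -0.31 in CPR5-C water leaves, against -0.19, 0.09 and -0.15 in WT dexamethasone and 0.23, -0.09 and 0.12 in WT water leaves. AT1G64405 had 6.18, 6.22 and 6.33 in CPR5-C dexamethasone and 0.16, -0.22 and -0.32 in CPR5-C water leaves, against -0.03, -0.25 and -0.16 in WT dexamethasone and -0.40, 0.10 and 0.03 in WT water leaves. These genes differed by 6.42 and 6.37 between CPR5-C dexamethasone and water, and their induced arrays varied little (SD 0.14 and 0.08). In AT1G64405 the other 3 groups overlapped, and in AT2G36220 the CPR5-C water arrays lay below those of both WT groups.

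AT5G10120 encodes a protein of the EIN3-like family of transcription factors, named for EIN3, a central activator of the ethylene response. It had 6.21, 6.11 and 6.15 in CPR5-C dexamethasone and 0.02, 0.17 and -0.11 in CPR5-C water leaves, against -0.05, 0.02 and -0.08 in WT dexamethasone and -0.04, -0.02 and -0.07 in WT water leaves. The difference of 6.12 (69.7-fold) in CPR5-C plants stood beside 0.01 in WT, and every array outside the induced group lay within 0.17 of 0.

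AT5G39520 had 5.81, 5.63 and 5.01 in CPR5-C dexamethasone and -0.21, 0.19 and 0.04 in CPR5-C water leaves, against -0.33, 0.02 and -0.02 in WT dexamethasone and -0.29, -0.06 and -0.02 in WT water leaves. AT5G47060, of the FCS-like zinc finger family of small regulatory proteins, had 5.18, 5.13 and 4.64 in CPR5-C dexamethasone and -0.20, -0.20 and -0.03 in CPR5-C water leaves, against 0.03, 0.04 and 0.29 in WT dexamethasone and -0.31, -0.11 and -0.29 in WT water leaves. In both genes replicate 3 was the lowest of the induced arrays. In AT5G47060 the WT dexamethasone arrays lay above the WT water arrays without overlap, by a mean of 0.35, close to the bound of the rule.

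AT1G10585 encodes a basic helix-loop-helix (bHLH) transcription factor. It had 5.34, 4.82 and 4.60 in CPR5-C dexamethasone and -0.40, -0.22 and 0.00 in CPR5-C water leaves, against 0.19, 0.10 and -0.08 in WT dexamethasone and -0.20, -0.69 and -0.00 in WT water leaves. AT1G16850 had 5.20, 4.95 and 4.63 in CPR5-C dexamethasone and -0.23, -0.04 and -0.22 in CPR5-C water leaves, against -0.26, 0.06 and -0.01 in WT dexamethasone and -0.09, 0.01 and 0.08 in WT water leaves. AT3G58060, of the cation efflux family of metal transporters, had 5.08, 4.89 and 4.92 in CPR5-C dexamethasone and -0.03, 0.03 and 0.03 in CPR5-C water leaves, against -0.08, 0.12 and -0.15 in WT dexamethasone and -0.05, -0.10 and -0.20 in WT water leaves. The differences between CPR5-C dexamethasone and water were 5.13, 5.09 and 4.95, and in each gene the other 3 groups overlapped, except that the CPR5-C water arrays of AT3G58060 lay just above its WT water arrays.

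The remaining 3 of the 12 genes with the largest differences were AT1G15010, AT5G53710 and AT5G47130. AT1G15010 had 4.51, 4.54 and 4.35 in CPR5-C dexamethasone and 0.07, -0.52 and -0.44 in CPR5-C water leaves, against -0.77, 0.17 and -0.24 in WT dexamethasone and -0.27, 0.45 and -0.07 in WT water leaves. AT5G53710 had 4.64, 4.27 and 4.28 in CPR5-C dexamethasone and -0.28, -0.04 and -0.21 in CPR5-C water leaves, against 0.01, 0.09 and 0.36 in WT dexamethasone and -0.34, -0.01 and -0.29 in WT water leaves. AT1G15010 spread over more than a log2 unit among the 9 arrays outside the induced group, from -0.77 to 0.45, and still had a difference of 4.76. AT5G47130 encodes a relative of Bax inhibitor 1, a membrane protein known to restrain cell death. It had 4.40, 4.66 and 4.43 in CPR5-C dexamethasone and 0.03, -0.03 and -0.24 in CPR5-C water leaves, against -0.25, -0.17 and 0.09 in WT dexamethasone and -0.34, 0.24 and -0.11 in WT water leaves.

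**Figure D2:**
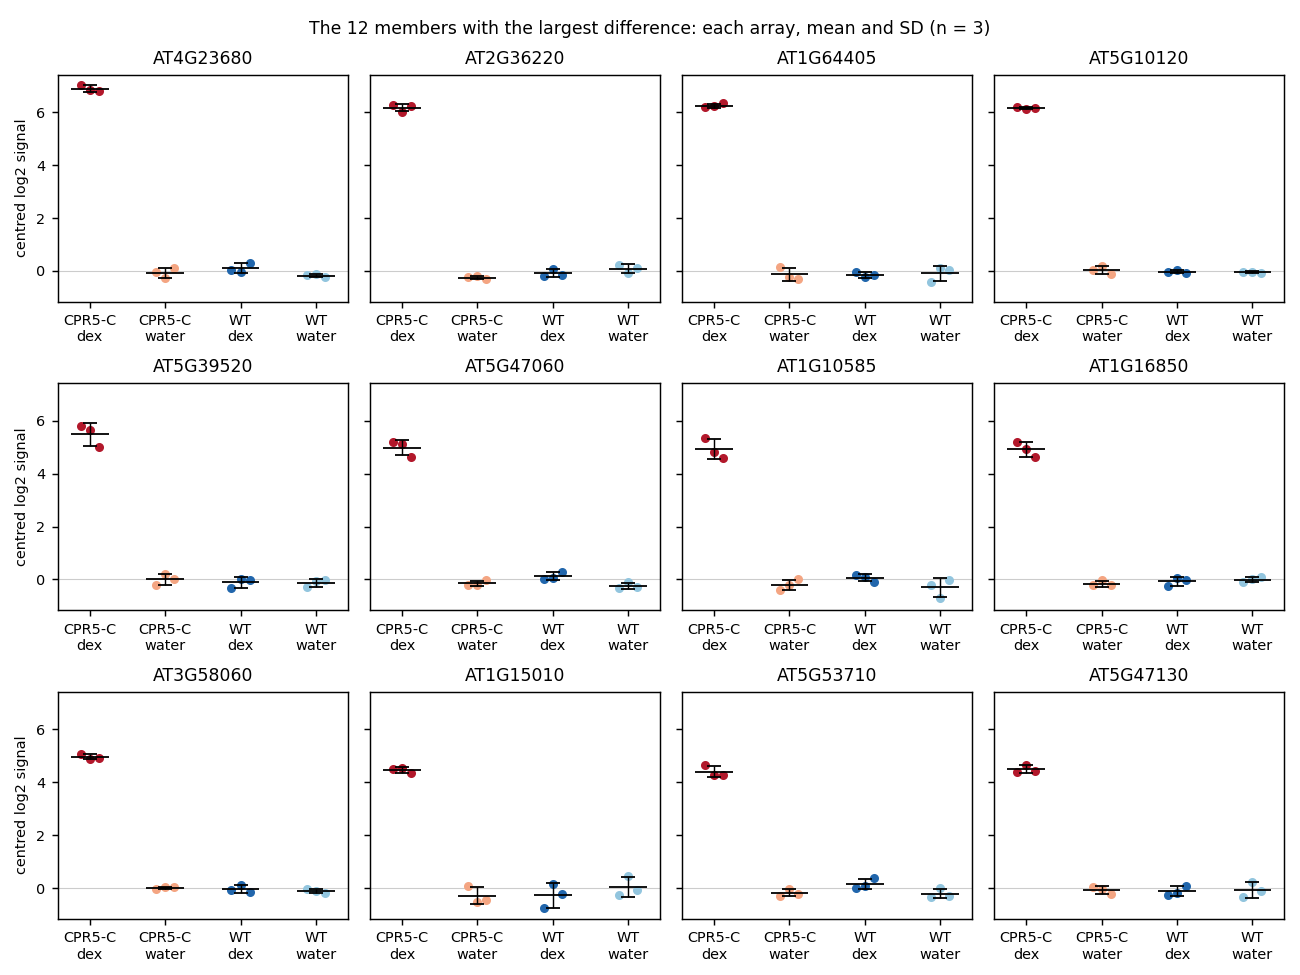
Centred log2 signal of the 12 genes with the largest difference, 1 point for each array, with the mean (long bar) and SD (whiskers) of the 3 arrays of each group. In every panel the CPR5-C dexamethasone points lie above 4 and the other 9 points between -1 and 1.

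On all 107 genes the 3 CPR5-C dexamethasone arrays lay above the other 9, as 21.0% of all probe sets did; the rule used this contrast, so nothing is read from the count. The gap between the lowest induced array and the highest of the others had a median of 2.21. The smallest gap, 0.54, belonged to AT5G52760, a gene with a heavy-metal-associated domain. AT5G52760 had 1.23, 2.07 and 1.62 in CPR5-C dexamethasone and 0.04, -0.60 and -0.90 in CPR5-C water leaves, against -0.88, 0.70 and 0.01 in WT dexamethasone and -0.10, -0.48 and -0.01 in WT water leaves. Its WT dexamethasone arrays had an SD of 0.79, the highest of the set in that group, so its small mean difference of 0.14 in WT covers a wide spread.

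The 3 groups without the induced fragment lay close together in most of the genes. The range of their means (CPR5-C water, WT dexamethasone and WT water) had a median of 0.18 and was under 0.5 in 105 of the 107 genes. The rule itself kept the WT dexamethasone and WT water means close to each other, so this closeness was partly set in advance. The same share over all probe sets is not given, and nothing is read from the count. Against WT leaves with the same steroid, the CPR5-C dexamethasone leaves were higher by 1.53 to 6.79 with a median of 2.49, and by at least 2 in 93 genes and less in 14. This comparison shares its CPR5-C dexamethasone and WT dexamethasone arrays with the rule and is given without a test.

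**Figure D3:**
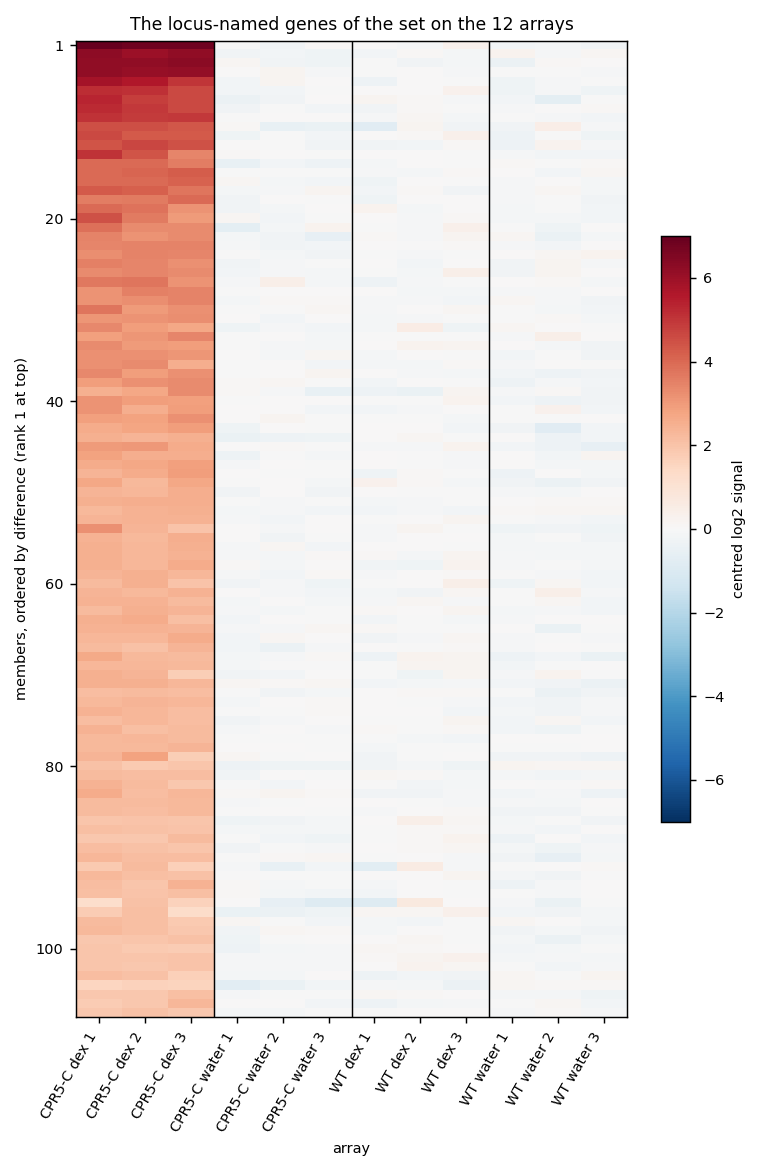
Centred log2 signal of the 107 genes (rows, largest difference at the top) on the 12 arrays (columns, grouped by genotype and spray and separated by black lines). The 3 CPR5-C dexamethasone columns run from deep red at the top to pale red at the bottom, and the other 9 stay near white.

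By family, 62 of the 107 genes could be placed in a group of known function, and 45 were left without one. The grouping was made after the genes were known, so it describes the set and was not tested. The largest groups were 17 metabolic enzymes, 10 regulators of transcription, 8 secreted or cell wall proteins and 8 proteins of membranes or metal handling.

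The 10 regulators of transcription differed between CPR5-C dexamethasone and water by 2.08 to 6.12 with a median of 3.06. Beside AT5G10120 and AT1G10585 they include the bHLH factors AT1G05710 (3.62) and AT1G49830 (3.19), the ethylene response factor AT5G43410 (2.93) and the C2H2 zinc finger gene AT1G14580 (2.43). AT1G26665 (2.84) encodes a subunit of Mediator, the complex that links transcription factors to RNA polymerase. AT1G05710 had 3.42, 3.46 and 3.47 on the CPR5-C dexamethasone arrays, an SD of 0.03. The B3 domain genes AT5G60140 (3.40) and AT5G60130 (2.08) are next to each other on chromosome 5, and both were in the set.

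Late embryogenesis abundant proteins are hydrophilic proteins that accumulate in drying seeds and in leaves under water deficit. The set held 3 of them, AT3G02480 (4.25), AT3G17520 (3.72) and AT2G23120 (2.56), and the dehydration- or desiccation-related genes AT4G35985 (3.08) and AT1G47980 (3.10). AT3G02480 had 5.05, 4.38 and 3.39 on the CPR5-C dexamethasone arrays, the widest spread of the set in that group (SD 0.83). AT3G17520 had 4.46, 3.61 and 2.99 there (SD 0.74). Replicate 1 was the highest and replicate 3 the lowest in both, whereas AT2G23120 had 2.48, 2.54 and 2.53 (SD 0.03).

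That pattern was seen in other genes of the set. The SD on the CPR5-C dexamethasone arrays was above 0.3 in 17 of the 107 genes and in 1.82% of all probe sets. Of these 17 genes, 13 were lowest on replicate 3 and 11 were highest on replicate 1. They include 3 of the 5 genes of the late embryogenesis abundant group, 4 of the 8 secreted or cell wall proteins, 2 of the 10 regulators of transcription and 0 of the 17 metabolic enzymes. The typical gene of the set varied less, with a median SD of 0.15 on these arrays against 0.09 over all probe sets. Over all 107 genes the order was less marked: 46 were highest on replicate 1, 27 on replicate 2 and 34 on replicate 3. The genes were chosen for a large difference on these arrays, whereas most probe sets had a small one. The spread of other probe sets with a large difference is not given, nor is the order of replicates over all probe sets. Nothing particular to the set is therefore read from these counts.

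The secreted and cell wall proteins differed by 2.18 to 3.76. They include the pectate lyase AT3G27400 (2.47), which cleaves pectin, the pectin methylesterase inhibitor AT5G62350 (2.44), the chitinase AT2G43590 (3.04), the peroxidase AT2G37130 (2.18) and the lipid transfer protein AT2G37870 (2.34). The strictosidine synthase-like genes AT3G57010 (3.76) and AT1G74010 (2.26) and the berberine bridge enzyme-like gene AT2G34810 (3.08) complete the group. AT2G43590 had 2.51, 2.71 and 3.32 on the CPR5-C dexamethasone arrays, highest on replicate 3, unlike AT3G02480 and AT3G17520.

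Among the proteins of membranes or metal handling, AT1G51090 (4.19) has a heavy-metal-associated domain, AT1G69480 (2.83) belongs to the family of the phosphate exporter PHO1, and AT1G26130 (2.49) to the P-type ATPases. The metabolic enzymes had a median of 2.25, with the FAD-dependent monooxygenase AT5G05320 at 4.10, the ribonuclease AT1G14210 at 3.53, the lipase AT3G62590 at 2.97 and the CTP synthase AT4G20320 at 2.43. The phosphoglycerate mutase-like genes AT3G60440 (2.79) and AT3G60450 (2.32) are the second pair of neighbouring genes in the set. Protein turnover was represented by the aspartyl proteases AT5G10770 (2.16) and AT2G39710 (2.05), the OTU-type cysteine proteases AT3G02070 (2.54) and AT5G04250 (2.29), the RING finger gene AT3G09760 (2.43) and the protease inhibitor AT5G47550 (2.29), a cystatin. The genes of signalling included the protein kinases AT5G11020 (2.57) and AT1G45160 (2.02).

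The 45 genes without a group differed by 2.01 to 6.42 between CPR5-C dexamethasone and water, with a median of 2.52. Below the 12 largest of the set, they include AT4G39320 (4.12), AT2G37750 (4.08), AT1G53180 (3.80), AT2G40435 (3.66) and AT1G52720 (3.64). AT3G16330 (3.49) had 3.33, 3.41 and 3.31 and AT3G27210 (3.16) had 3.18, 3.19 and 3.11 on the CPR5-C dexamethasone arrays, SDs of 0.05 and 0.04. AT3G25290 (3.27) had 3.76, 2.98 and 3.17 and AT1G05340 (3.19) had 3.38, 2.91 and 2.70 there, both highest on replicate 1. AT1G05960 (2.85) was at 0.35 and AT3G14280 (3.16) at 0.28 for dexamethasone minus water in WT leaves.

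At the threshold, the smallest differences inside the set were those of AT1G45160 (2.02), AT3G59710 (2.02) and AT1G18720 (2.01). AT1G45160 had 1.89, 1.90 and 2.13 in CPR5-C dexamethasone and -0.08, -0.02 and -0.04 in CPR5-C water leaves, against 0.14, 0.08 and 0.02 in WT dexamethasone and -0.16, -0.11 and -0.32 in WT water leaves. AT3G59710, a short-chain dehydrogenase, had 1.77, 1.88 and 2.32 in CPR5-C dexamethasone and 0.04, 0.04 and -0.18 in CPR5-C water leaves, against -0.36, -0.12 and -0.07 in WT dexamethasone and -0.04, 0.14 and -0.21 in WT water leaves. AT1G18720 had 1.87, 2.03 and 1.90 in CPR5-C dexamethasone and -0.11, -0.13 and -0.01 in CPR5-C water leaves, against -0.04, 0.01 and 0.02 in WT dexamethasone and -0.09, 0.10 and -0.06 in WT water leaves. Just outside were AT3G10300 (1.98), AT3G03410 (1.98) and AT5G17380 (1.98), so the lower edge of the set is no gap in the data. At the bound for WT, AT4G33700 was inside at 0.39 and AT2G41190 outside at 0.40.

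A further 26 locus-named probe sets differed by at least 2 in CPR5-C plants and lay outside the bound for WT, 18 of them above 0 and 8 below 0 in WT. With them, 133 of 11933 locus-named probe sets (1.11%) had a difference of at least 2 in CPR5-C plants. Among single-gene probe sets with another symbol, 30 of 1580 (1.90%) had one.

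The comparison of the genotypes without the inducer is the one the rule did not set directly, and it asked whether the genes already differed in CPR5-C plants sprayed with water. In limma (lmFit and eBayes, two-sided, p adjusted by Benjamini-Hochberg over all 22746 probe sets), 5 of the 107 genes (2 higher and 3 lower in CPR5-C water than in WT water leaves) passed an adjusted p of 0.05, as did 1610 probe sets or 7.08% of all (4.25% higher and 2.83% lower). Of the 11933 locus-named probe sets from which the genes were taken, 632 (5.30%) passed, beside 4.67% of the 107 genes. The median difference of the 107 genes was 0.02 (range -0.58 to 0.39), against 0.01 over all probe sets. This comparison uses the CPR5-C water and WT water arrays that also entered the rule. A chance low value in CPR5-C water leaves therefore both favoured membership and lowers this difference. A chance value in WT water leaves moves this difference and dexamethasone minus water in WT in the same direction. In the genes called, the 2 differences had the same sign. Dexamethasone minus water in WT was -0.38 for AT3G27770, -0.32 for AT2G42040 and -0.08 for AT1G51090. It was 0.27 for AT5G27280 and 0.14 for AT2G41380. Which group stands apart in these genes was not tested. The 5 genes became 8 without CPR5-C dexamethasone replicate 1 and 3 without CPR5-C water replicate 3, WT dexamethasone replicate 1 or WT dexamethasone replicate 3. The 1610 probe sets became 922 without CPR5-C water replicate 2, 900 without CPR5-C water replicate 3 and 1019 without WT water replicate 3.

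AT2G42040 was lower in CPR5-C water leaves with -0.76, -0.45 and -0.22, against 0.14, 0.09 and 0.08 in WT water leaves. The difference was -0.58 (SE 0.12, limma adjusted p = 0.00665), the groups did not overlap, and the gene was still at 1.49, 1.59 and 1.55 in CPR5-C dexamethasone leaves and at -0.08, -0.16 and -0.41 in WT dexamethasone leaves. AT3G27770 was lower as well, with -0.36, -0.32 and -0.30 in CPR5-C water leaves, against 0.19, 0.15 and 0.15 in WT water leaves (difference -0.49, SE 0.07, limma adjusted p = 0.000681). On its other arrays AT3G27770 had 2.07, 1.82 and 1.92 in CPR5-C dexamethasone and -0.22, -0.15 and -0.28 in WT dexamethasone leaves. Both genes passed under all 19 alternative fits.

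AT2G41380, a methyltransferase, was higher, with 0.12, 0.08 and 0.12 in CPR5-C water leaves, against -0.18, -0.24 and -0.39 in WT water leaves (difference 0.38, SE 0.07, limma adjusted p = 0.00428). On its other arrays it had 2.502, 2.46 and 2.35 in CPR5-C dexamethasone and -0.19, -0.11 and -0.08 in WT dexamethasone leaves. It passed under 18 of 19 alternative fits, the exception being scaling to the poly-A spikes. The last calls were close to the threshold. AT1G51090 had -0.53, -0.18 and -0.35 in CPR5-C water leaves, against 0.11, -0.05 and 0.06 in WT water leaves (difference -0.40, SE 0.11, limma adjusted p = 0.0459), and passed under 8 of 19 alternatives, with adjusted p from 0.0101 to 0.208. It had 3.96, 3.96 and 3.57 in CPR5-C dexamethasone and -0.13, 0.05 and -0.05 in WT dexamethasone leaves. AT5G27280 had -0.05, 0.08 and 0.14 in CPR5-C water leaves, against -0.24, -0.55 and -0.12 in WT water leaves (difference 0.36, SE 0.10, limma adjusted p = 0.0447), and passed under 4 of 19, with adjusted p from 0.0234 to 0.808. It had 2.34, 2.16 and 2.19 in CPR5-C dexamethasone and -0.03, 0.03 and -0.08 in WT dexamethasone leaves.

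For the 12 genes with the largest CPR5-C dexamethasone minus water difference, the genotypes sprayed with water differed by -0.34 to 0.13 and none passed the threshold in limma. AT2G36220 came closest (-0.34, SE 0.10, limma adjusted p = 0.0561).

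**Figure D4:**
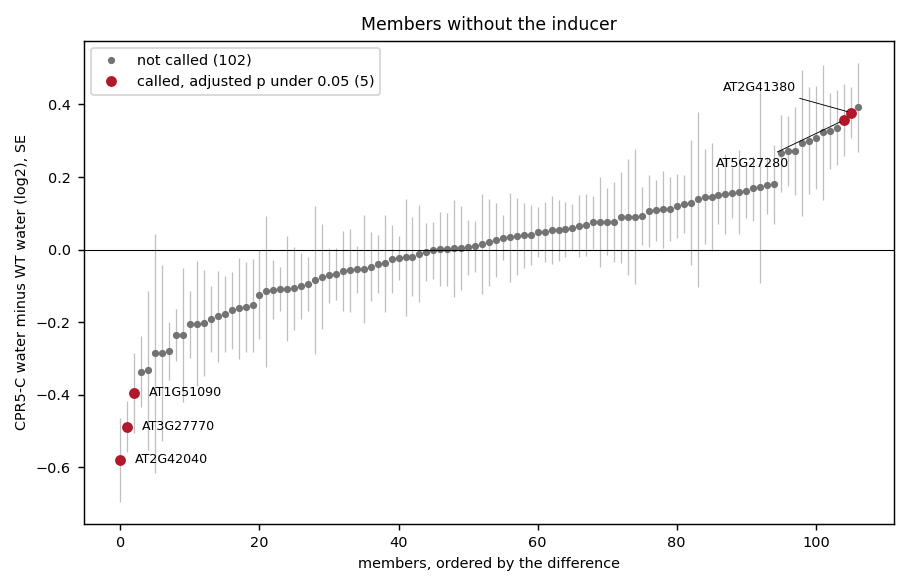
CPR5-C water minus WT water for the 107 genes, ordered by the difference (log2; whiskers are the limma SE). The 5 red points passed an adjusted p of 0.05, and the differences run from -0.58 to 0.39.

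Relatives of 3 genes of the set were measured as well. The rule did not choose them, but the families were chosen with earlier results of these data known. A relative that met the rule would have been counted in the set instead. The major latex protein-like family had 13 other measured genes. In CPR5-C plants 1 of them rose after dexamethasone, 3 fell and 9 did not pass in limma, where 23.3% of all probe sets rose and 24.6% fell. AT4G23670, the neighbour of AT4G23680 on chromosome 4, had 0.51, 0.46 and 0.48 in CPR5-C dexamethasone and -0.09, -0.06 and 0.12 in CPR5-C water leaves, against 0.07, -0.05 and -0.07 in WT dexamethasone and 0.02, -0.11 and -0.02 in WT water leaves. It rose by 0.50 (SE 0.07, limma adjusted p = 3.35e-05), where AT4G23680 stood 6.96 higher. The rise of AT4G23670 passed under 18 of 19 alternative fits, with limma adjusted p up to 0.0697. The largest fall of the family was that of AT3G26450 (-1.10, SE 0.10, limma adjusted p = 2.44e-07). With arrays scaled to their poly-A spikes, AT3G26450 was the only one of the 3 that still fell: AT1G23120 (-0.39 as deposited) was at 0.017 and AT1G23130 (-0.21 as deposited) at 0.20, neither passing, and 5 of the 13 rose. AT1G23130 did not pass without CPR5-C dexamethasone replicate 2 (limma adjusted p = 0.0664) or CPR5-C water replicate 3 (limma adjusted p = 0.0746) either. In WT leaves 0 of the 13 passed in limma.

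The FCS-like zinc finger family had 12 other measured genes, of which 4 rose, 4 fell and 4 did not pass in CPR5-C plants after dexamethasone. Among those that rose, AT4G17670 and AT1G19200 each passed under 18 of 19 alternative fits, with limma adjusted p up to 0.114 and 0.286. The largest rise was that of AT2G25690 (1.05, SE 0.12) and the largest falls were those of AT1G78020 (-1.76, SE 0.08) and AT1G22160 (-1.69, SE 0.12), beside 5.13 for AT5G47060. With arrays scaled to their poly-A spikes 8 of the 12 rose and 3 fell, and AT1G79970, which fell as deposited (-0.30), was at 0.11 and did not pass. In WT leaves 9 of the 12 rose after dexamethasone and 0 fell in limma, where 5.07% of all probe sets rose and 4.01% fell. The WT rises of AT5G11460, AT3G22550 and AT1G79970 passed under 14, 15 and 16 of 19 alternative fits. Each of these was lost in some fits with a single array left out. The spike scaling lowers every WT difference by 0.17, and under it 2 of the 12 rose in WT leaves, AT1G22160 and AT4G17670. Of the EIN3-like relatives of AT5G10120, EIN3 was at 0.12 (limma adjusted p = 0.186) and AT5G65100 at 0.05 (limma adjusted p = 0.760) in CPR5-C plants; with the spike scaling they were at 0.53 and 0.46 and passed.

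**Figure D5:**
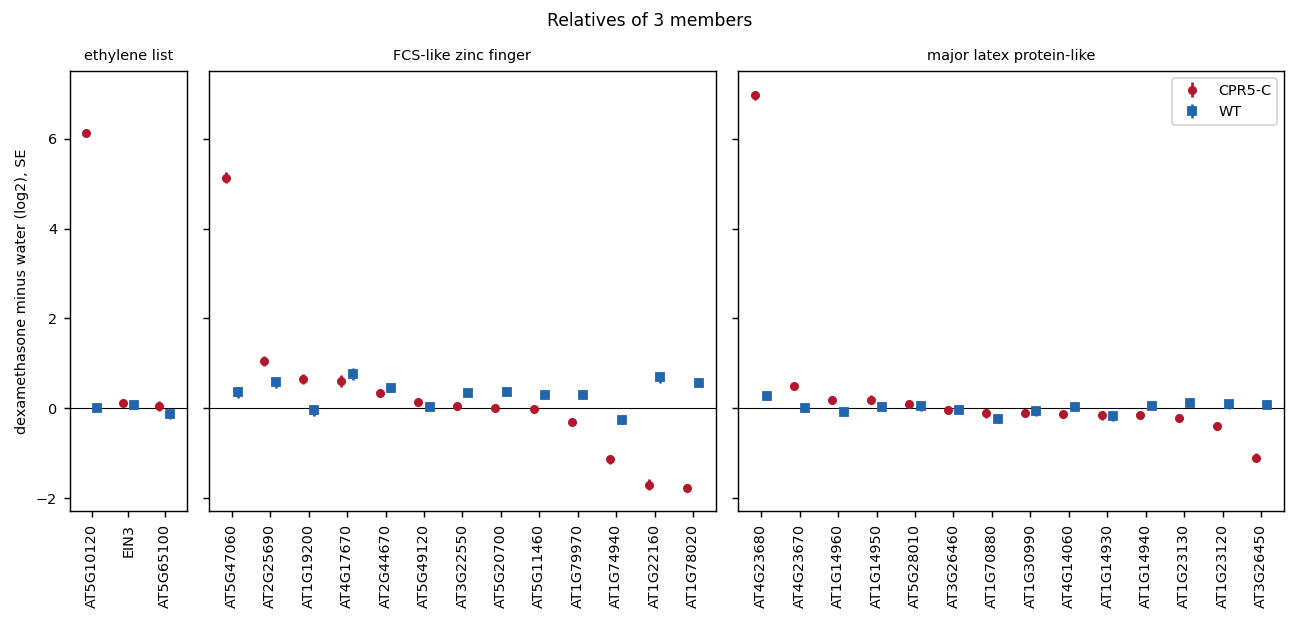
Dexamethasone minus water (log2, whiskers are the limma SE) in CPR5-C plants (red circles) and WT (blue squares) for the measured genes of the ethylene list, the FCS-like zinc finger family and the major latex protein-like family. AT5G10120, AT5G47060 and AT4G23680, which belong to the set, stand at 6.12, 5.13 and 6.96, and every other gene lies between -1.76 and 1.05.

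Of 38 genes on a list of abscisic acid and dehydration responses, 5 were matched to a probe set outside the 107 genes, and these 5 rose in CPR5-C plants after dexamethasone in limma, where 23.3% of all probe sets rose. The cold- and drought-regulated COR15B had 4.72, 4.74 and 4.58 in CPR5-C dexamethasone and -0.23, -0.31 and -0.29 in CPR5-C water leaves (difference 4.96, SE 0.09, limma adjusted p = 2.27e-14). LEA4-5, a late embryogenesis abundant gene, had 3.67, 3.38 and 2.48 in CPR5-C dexamethasone and -0.25, 0.05 and 0.22 in CPR5-C water leaves (difference 3.17, SE 0.22, limma adjusted p = 1.67e-08), lowest on replicate 3 like AT3G02480 and AT3G17520. The other 3 were LTI30 (5.35), COR15A (4.38) and COR47 (3.71), and the median of the 5 was 4.38 against -0.02 over all probe sets. In WT leaves COR47 fell (-0.46) and the other 4 did not pass; without WT dexamethasone replicate 1 or 3, or without WT water replicate 1, COR47 did not pass either (limma adjusted p = 0.0851, 0.0593 and 0.0744). Of 21 genes on a list of senescence and starvation 4 were measured: SAG29 (6.42), SAG101 (0.77) and WRKY6 (0.54) rose and WRKY53 fell (-0.50) in CPR5-C plants, and WRKY53 fell in WT leaves as well (-1.87). With the spike scaling WRKY53 did not pass in CPR5-C plants. The rises of SAG101 and WRKY6 each passed under 18 of 19 alternative fits, with limma adjusted p up to 0.0800 and 0.211. These lists were chosen with earlier results of these data known.

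Markers of other leaf cell types moved in the same comparison. Of 8 guard cell markers 2 were measured, and both fell in CPR5-C plants after dexamethasone, AT1G22690 by 3.06 and FMA by 0.28 on the log2 scale. Scaled to the poly-A spikes FMA was at 0.13 and did not pass, nor did it without CPR5-C dexamethasone replicate 2 (-0.20, limma adjusted p = 0.0611). Of 6 phloem markers SWEET11 was measured and rose (0.51). No gene on the lists of trichome, epidermis and seed markers was matched to a probe set through the annotation table, which lists no gene for 8730 of the 22746 probe sets, so their levels were not examined. The part of these cell types in the differences of the 107 genes was not tested.

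The 107 genes are spread over the genome. Chromosomes 1 to 5 held 30, 18, 20, 13 and 26 of them, which is between 0.754% and 0.967% of the locus-named probe sets of each chromosome. Apart from the 2 pairs of adjacent genes, 109 other genes directly next to a gene of the set were measured. Their median difference between CPR5-C dexamethasone and water was 0.08, and 5 of them (4.59%) were higher by at least 1, as were 4.47% of all single-gene probe sets. The 109 leave out the genes of the set, whereas the share over all single-gene probe sets includes them. The shares are therefore unlike, and nothing is read from their closeness. Without CPR5-C dexamethasone replicate 1 the 5 became 9. The genes on either side of AT5G47060, chosen here after their values were seen, were AT5G47050 at -1.03 and AT5G47070 at 1.03.

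Among genes with another symbol, those whose values followed the median profile of the 107 genes most closely over the 12 arrays were BGLU45 (Pearson r = 0.999), SAG29 (0.998), MYBC1 (0.998), SERPIN1 (0.997) and SCPL49 (0.997). These correlations are a description: the 3 induced arrays dominate them, and the 12 arrays share the same groups. The sizes differed, with CPR5-C dexamethasone minus water at 8.44 for BGLU45, 6.42 for SAG29, 4.98 for MYBC1, 1.72 for SERPIN1 and 2.75 for SCPL49, and WT dexamethasone minus water between 0.03 and 0.21.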

How the data were processed

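The sample labels gave the groups and replicate numbers. The deposited log2 values were made by the authors with RMA, per the submitters' processing notes; its version, settings and log base were not given in the sources used, and log2 is what RMA gives. Tested on the file, every one of 22810 probe sets had a median of 0 over the arrays (within 1e-06), so the authors had centred them. Background correction, dim probes, scan batches and absolute levels could therefore not be examined.

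Probe sets were named from the platform annotation table; 106 of the 107 loci were found in a RefSeq table of TAIR10.1, which was used for gene order only. No sequences were used here. After 64 control probe sets were left out, limma 3.58.1 (R 4.3.3) was fitted to 22746 probe sets, with 1 mean for each group over all 12 arrays (8 residual and 5.79 prior degrees of freedom), and the fit was tested on simulated data. The p-values set a difference of group means against the spread between arrays within groups. Whether that spread covers several plants or transgenic lines is unknown. Figures used matplotlib 3.10.9.

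The genes, the 10 lists (153 loci) and the families were chosen with earlier results of these data known. Values on every array were to be given for the 12 largest differences, for genes called between genotypes with water and for the 3 nearest the threshold; AT5G52760 was added after its values were seen. Alternatives were a replicate block, the compared groups alone, quantile normalization, median centring, scaling to 24 poly-A spike probe sets (Dap, Lys, Phe and Thr), a trended robust variance, array weights, other thresholds and each array left out. The interaction test and the count of adjacent genes were added after the values were seen.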

Additional observations from a re-analysis of the deposited data

Results flagged for a closer look

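Among the list genes outside the set, 4 changed in opposite directions after dexamethasone in CPR5-C and WT leaves, each passing in limma in both genotypes and in the genotype by dexamethasone interaction. The WT calls were less stable: that of COR47 was lost without WT dexamethasone replicate 1 or 3 or WT water replicate 1, that of AT1G78020 with poly-A spike scaling (limma adjusted p = 0.211), and that of AT1G79970 with spike scaling and without WT dexamethasone replicate 1 or WT water replicate 3. COR47, a dehydrin, rose in CPR5-C (3.71) and fell in WT leaves (-0.46), an interaction of 4.17 (SE 0.16, limma adjusted p = 1.32e-10). AT1G22160 fell in CPR5-C (-1.69) and rose in WT leaves (0.69), an interaction of -2.39 (SE 0.16, limma adjusted p = 3.81e-08). It had -1.18, -1.02 and -1.17 in CPR5-C dexamethasone and 0.21, 0.79 and 0.71 in CPR5-C water leaves, against 0.43, 0.44 and 0.43 in WT dexamethasone and -0.25, -0.21 and -0.31 in WT water leaves, with no overlap between sprays in either genotype. AT1G78020 fell in CPR5-C (-1.76) and rose in WT leaves (0.56), an interaction of -2.32 (SE 0.12, limma adjusted p = 1.94e-09). AT1G79970 fell in CPR5-C (-0.30) and rose in WT leaves (0.29), an interaction of -0.60 (SE 0.09, limma adjusted p = 0.000134), which under poly-A spike scaling was -0.013 and did not pass (limma adjusted p = 0.961), with AT1G79970 then above 0 in both CPR5-C (0.11) and WT leaves (0.12). The last 3 belong to the FCS-like zinc finger family, as does AT5G47060. Each array lies in 1 group of 3, too few for a test of single arrays that stand apart.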

How the results depend on the processing

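Scaling each array to its poly-A spikes added 0.41 to every CPR5-C dexamethasone minus water difference and -0.17 to every WT one. It gave 180 genes by the rule in place of 107 (102 shared), medians of 2.92 for CPR5-C dexamethasone minus water and 3.01 for CPR5-C minus WT dexamethasone, 22 adjacent genes at least 1 higher in place of 5, 5 list genes called in WT in place of 12, and 2 genes of the set and 462 probe sets called between genotypes with water. Under it 11 list genes turned from below to above 0 in CPR5-C plants. Of these, AT1G79970 (0.11), AT1G23120 (0.017), AT1G23130 (0.20) and FMA (0.13) had passed as deposited and no longer did, AT5G11460 (0.39) and AT3G26460 (0.37) passed only after the scaling, and AT1G14930, AT1G14940, AT1G30990, AT1G70880 and AT4G14060 passed in neither. Quantile normalization gives every array the same distribution of values. As deposited, the centred values had an SD of 0.68 to 0.69 on the induced arrays and 0.13 to 0.23 on the other 9. This normalization gave 9 genes by the rule (all 9 shared) and medians of 1.20 and 1.10. It also gave 3 adjacent genes, 12 genes called between genotypes with water, and 17 list genes called in CPR5-C in place of 24. The cause of these changes was not tested. The number of genes was 204 at a difference of at least 1.5 and 54 at 2.5. The mean of the set was 2.998 in place of the median 2.51, and 2.93 in place of 2.49 against WT dexamethasone. Between genotypes with water, the 5 genes called became 8 with array weights, 3 with a trended robust variance and 3 at adjusted p under 0.01, where 783 probe sets passed.

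With the replicate number as a block 3 of the 5 remained, and no other count moved by over 1.5 times. Same-numbered arrays of different groups did not deviate together (correlations of deviations from -0.207 to 0.362, median -0.04; 2 of 12 arrays correlated best with their own number), so the numbers were not taken as pairs.

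With each array left out in turn, the rule gave 102 to 110 genes. The medians were 2.51 to 2.54 and 2.43 to 2.55, the genes called between genotypes with water 3 to 8, all probe sets called there 900 to 1665, adjacent genes 5 to 9, and list genes called 22 to 25 in CPR5-C and 8 to 12 in WT. Of 1436 values of single genes under alternatives, 1325 kept direction and call or stayed within the spread between replicates.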

Other observations

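The thresholds that chose the 107 locus-named genes were also met by 136 of 8730 probe sets (1.56%) for which the annotation table lists no gene and by 23 of 1580 single-gene probe sets with another symbol (1.46%), against 0.897% of the locus-named ones. Of the probe sets that differed by at least 2 in CPR5-C plants, the share within the bound for WT was 81.9% for those without a listed gene, 80.5% for locus-named ones and 76.7% for those with another symbol. In the opposite direction, 96 locus-named probe sets were lower by at least 2 in CPR5-C dexamethasone than in CPR5-C water leaves, against 133 that were higher.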
